A study of Mus musculus with 3 samples.

Results

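Pthlh and 9 genes of cartilage and bone, namely Pth1r, Runx2, Sp7, Sox9, Acan, Comp, Alpl, Spp1 and Ibsp, were followed in mouse embryonic fibroblast (MEF) cells with and without n-butylidenephthalide (BP), a compound from Angelica sinensis. Every probe that the array files or the RefSeq symbol of its accession assign to these genes was taken, which gave 12 of 55681 gene probes for 10 of 35696 gene names. The set was put together with the array ratios to the control already known, so the values that follow describe its members and no test was made on them. Total RNA of C57BL/6 MEF cells was read on whole genome mouse arrays from Agilent in 1 colour (Cy3), with 1 array for each of 3 conditions. These were MEF cells with no treatment recorded in the labels, called control here and described by the study as given DMSO, MEF cells cultured with 10 µg/ml BP (BP10) and MEF cells cultured with 40 µg/ml BP (BP40). No culture time is given in the labels. The cells were a primary culture of mouse embryo tissue in which the head, the legs and the viscera were left out.

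Parathyroid hormone-related protein, which Pthlh encodes, is a secreted ligand of the receptor Pth1r. In growing cartilage it keeps chondrocytes from maturing too early, in a loop with Indian hedgehog, and Pth1r passes its signal on mainly through cAMP. Sox9 drives the cartilage program and its matrix genes Acan and Comp, whereas Runx2 and Sp7 drive the osteoblast program, of which Alpl, Spp1 and Ibsp are matrix and mineralization genes. Fibroblast cultures from embryos are known to hold mesenchymal cells that can take either path.

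A level here is the log2 signal of a probe relative to the 75th percentile of the gene spots on its array. A ratio is the difference of 2 such levels on the log2 scale, and it was counted as past 2-fold at 1 or more in size where 1 of the 2 arrays, or both, showed the probe well above background. No condition was repeated, so no spread between cultures and no p-value can be given. The ± values are the scanner software's error for a spot and cover the measurement of that spot alone. All 3 arrays lay on 1 slide, but the control array was scanned in another session than the 2 BP arrays, so in every comparison with the control the treatment and the scan session cannot be told apart. The control array was also the brightest, with a median signal of 224 beside 145 for BP10 and 123 for BP40, and 81.7%, 68.3% and 69.1% of gene spots were well above background. The median ratio of all probes was -0.24 for BP10 and -0.15 for BP40 against the control, and 0.04 for BP40 against BP10. The shift against the control differed with brightness. Among probes of like mean signal it was -0.70 and -0.60 for the dimmer Runx2 probe. It was -0.44 and -0.42 for Pthlh, and -0.03 and 0.05 for Sox9. Each ratio below is to be read relative to the shift at its own brightness. Since these are bulk RNA samples, fewer cells of a type and less RNA per cell cannot be told apart. The label was checked on fibroblast markers, and all 10 probes for Col1a1, Col1a2, Col3a1, Thy1, Pdgfra, Pdgfrb, Vim, Dcn, Lum and Postn were well above background on all 3 arrays. Of the osteoblast marker probes 6 of 9 were above background on all 3 arrays, and of the chondrocyte marker probes 5 of 9. Matn1 and Cnmd were not well above background on any array. The same held for 35223 of all 55681 gene probes being above background on all 3 arrays. Of other marker probes it held for 10 of 11 for macrophages, 5 of 7 for osteoclasts and 7 of 12 for epithelium. It also held for 3 of 6 for skeletal muscle and 4 of 5 for endothelium. Being above background thus says little about which cells were present.

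The probes that carry the results are given here 5′ to 3′ as the array files hold them. For Pthlh the first 30 bases of its only probe are shown, and for Runx2 and Comp the whole probe of 60 bases. Capitals in the first Runx2 probe mark its first ATG, at base 13, and the ATG letters of the 3′ probe and of the Comp probe are left unmarked.
Pthlh: tgggatcaaactgtctccccaggaaactgc
Runx2, 5′ probe: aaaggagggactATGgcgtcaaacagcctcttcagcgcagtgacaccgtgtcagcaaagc
Runx2, 3′ probe: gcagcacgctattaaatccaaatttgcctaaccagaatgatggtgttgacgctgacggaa
Comp: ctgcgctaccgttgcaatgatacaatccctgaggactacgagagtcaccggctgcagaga
By the array design's mm9 coordinates the Pthlh probe lies on the minus strand at chr6:147200926-147200985. The 5′ probe of Runx2 lies at chr17:44951128-44951187 and its 3′ probe at chr17:44744925-44744984, also on the minus strand, with 206203 bases between their starts. The Comp probe covers chr8:72905692-72905825, a stretch longer than its own 60 bases. No file used here annotates exons or UTRs for these positions.

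Pthlh had the lowest ratio to the control of all member probes at each dose. Its level was -1.93 on the control array, then -4.43 (BP10) and -4.67 (BP40), from processed signals of 463, 66.6 and 48.6, and the probe was well above background on all 3 arrays. The control array was high and the BP arrays were both low and close together. The ratio was -2.49 ± 0.29 for BP10 and -2.74 ± 0.32 for BP40, or 5.63-fold and 6.68-fold lower than the control. BP40 against BP10, scanned together, gave -0.25 ± 0.35, which is within the scanner error.

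Among the 35223 probes above background on all 3 arrays, 22 had a ratio as low as Pthlh at BP10 (0.0625%) and 8 at BP40 (0.0227%). As low at both were 3 probes. Each of these counts includes the Pthlh probe itself. Among the 2756 probes of like mean signal, 5% lay at or below -1.55 at BP10 and at or below -1.56 at BP40. These shares describe the arrays and are no test, since Pthlh was chosen for this difference.

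The control level of Pthlh rests on 1 spot whose pixels were uneven. The mean over its 41 pixels was 531 and the median 330, with an SD of 365, and 3 high pixels had already been left out by the scanner software. This SD was 68.8% of the mean, against a median of 12.3% among the 2780 spots within 1.2-fold of its brightness on that array, of which 0.863% were as uneven. The software did not flag the spot as an outlier, but it did not find the spot either and used its nominal place on the grid, as it did for 10.8% of those like spots. On the BP10 and BP40 arrays the Pthlh spots were even, with pixel means of 146 and 121 and medians of 142.5 and 119. With the pixel median in place of the mean, a setting chosen after these pixels were seen, the ratio was -1.74 for BP10 and -1.98 for BP40. Over the alternatives of scaling, background correction and pixel summary it lay between -2.49 and -1.54 at BP10 and between -2.78 and -1.55 at BP40, past 2-fold in each of these. The part of the uneven spot in the result was not tested beyond this.

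**Figure D1:**
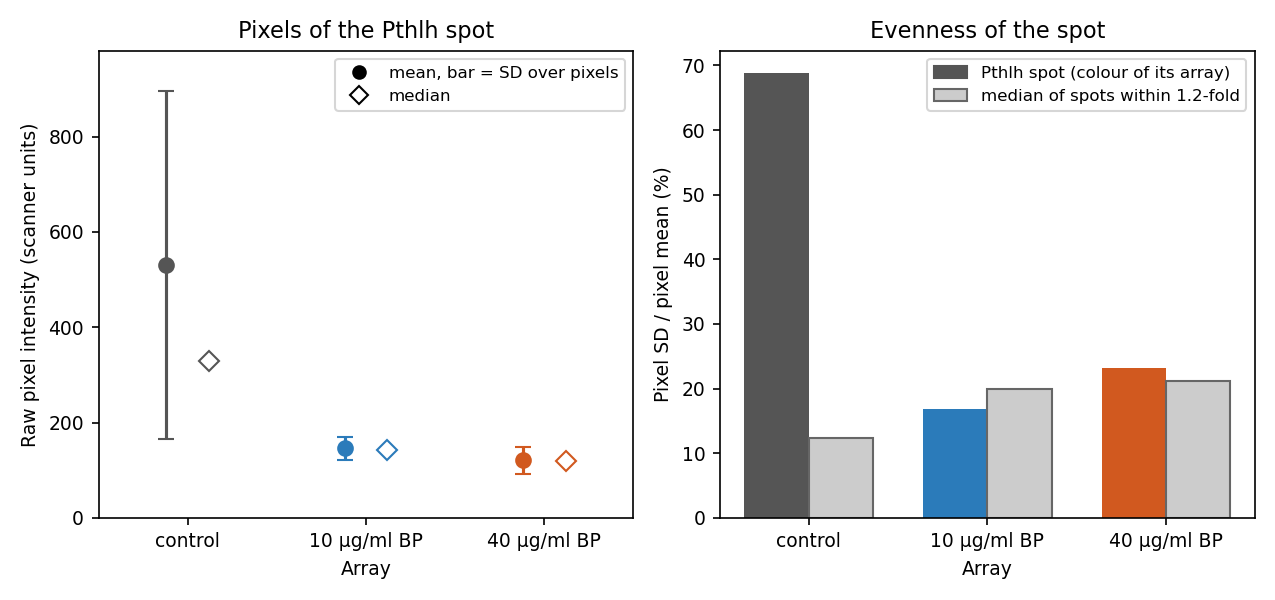
Raw pixel intensity of the Pthlh spot on each array (left; mean with the SD over pixels, and median) and the pixel SD as a percent of the mean beside the median of spots within 1.2-fold in brightness (right). The control spot has a mean of 531 and a median of 330, while mean and median nearly coincide on the BP10 and BP40 arrays.

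Pth1r, the receptor, stayed within 2-fold at BP10. Its level was 0.93 on the control array and 1.13 on BP10, a ratio of 0.20 ± 0.20. The BP40 spot was flagged as non-uniform and left out, so no BP40 ratio is given for it in the counts. That spot had a pixel mean of 3449 against a median of 2509.5, and with the flag set aside the ratio would be 0.57.

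**Figure D2:**
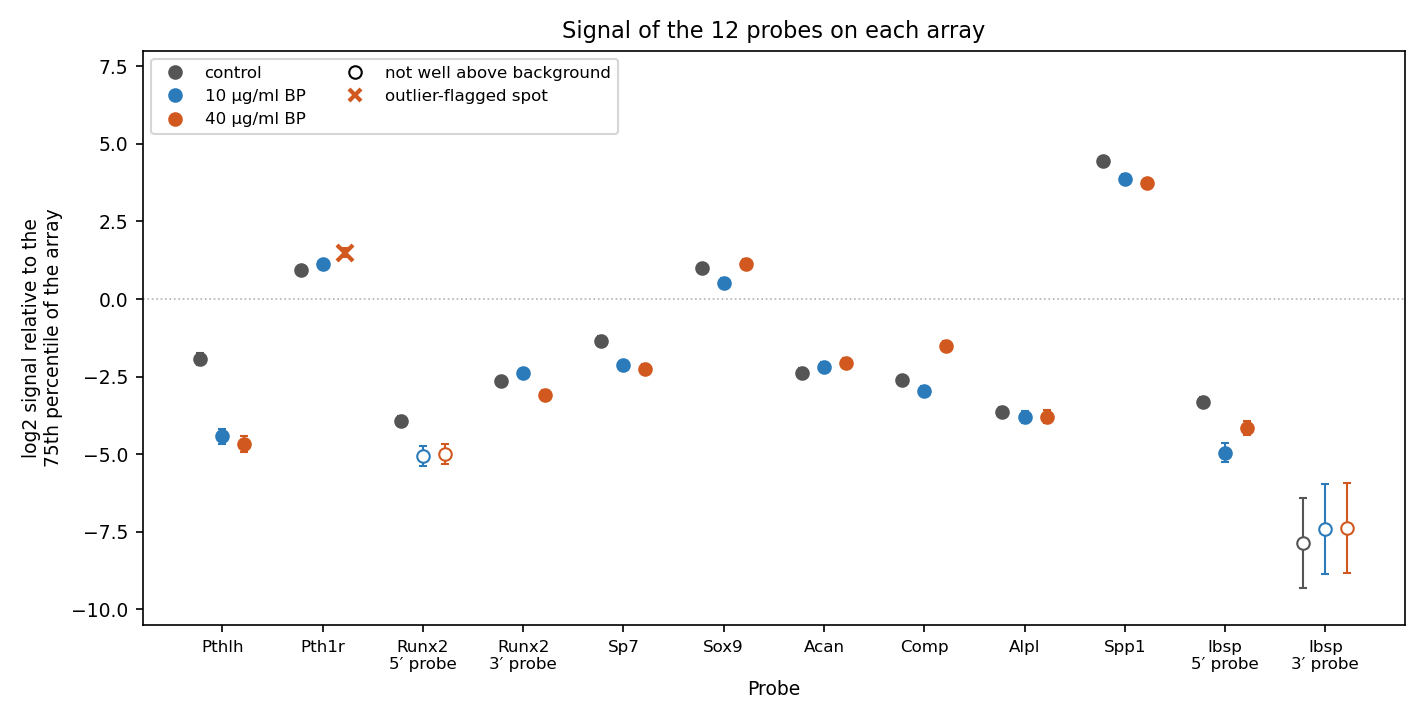
Level of each of the 12 probes on the control, BP10 and BP40 arrays (log2 signal relative to the array's 75th percentile; bars are the scanner's error for a spot; open circles mark probes not well above background and the cross a spot flagged as an outlier). Pthlh stands apart by the gap between its control value of -1.93 and its BP values of -4.43 and -4.67.

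The transcription factors gave differing pictures. Runx2, the factor at the head of the osteoblast program, was read by 2 probes with differing ratios. Its 5′ probe had levels of -3.93, -5.05 and -5.0 on the control, BP10 and BP40 arrays and was above background on the control array alone, so the ratios are bounds, at least 2.19-fold lower at BP10 and at least 2.10-fold lower at BP40. Its 3′ probe, above background on all 3 arrays, had levels of -2.65, -2.39 and -3.08, a ratio of 0.26 ± 0.21 at BP10 and of -0.43 ± 0.22 at BP40. BP40 against BP10 gave -0.69 ± 0.23 for the 3′ probe, which stayed within 2-fold throughout.

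As background, Runx2 is transcribed from a distal and a proximal promoter, and the distal start has a first coding exon of its own. The array file places the 5′ probe at base 362 and the 3′ probe at base 1830 of the transcript. The ratio of the 5′ probe is fragile. With quantile normalization it was -0.59 at each dose, not past 2-fold. With the normexp background correction it was -0.28 at BP10 and -0.13 at BP40, also not past 2-fold. A difference between transcripts of the 2 promoters was not tested.

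Sp7 (osterix), which acts after Runx2 in osteoblasts, had levels of -1.34, -2.13 and -2.25. Its ratio was -0.79 ± 0.21 at BP10 and -0.91 ± 0.21 at BP40, close to 2-fold lower but not past it. Among the 2756 probes of like mean signal, 21.9% were as low at BP10 and 15.3% at BP40. The BP arrays were both low, and between them the ratio was -0.12 ± 0.21.

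Sox9, the cartilage factor, was the only member printed more than once, with 10 spots of its probe on each array. The spots averaged 1.0 ± 0.14 (SD over spots, from 0.78 to 1.2) on the control array, 0.52 ± 0.08 (0.41 to 0.63) on BP10 and 1.14 ± 0.06 (1.04 to 1.21) on BP40. All 10 BP10 spots lay below all spots of the other arrays, whereas the control and BP40 spots overlapped. Matched by their place on the array, the spots gave a ratio of -0.48 (SD 0.09) for BP10 against control, 0.13 (SD 0.13) for BP40 against control and 0.61 (SD 0.07) for BP40 against BP10. On these arrays Sox9 was thus lower at the low dose, within 2-fold, and near the control at the high dose. Among the 2756 probes of like mean signal, 11.1% were as low at BP10. For BP40 against BP10, 6.79% were as high. The spots share 1 labeled RNA per array, so neither their SD nor their lack of overlap says anything about the spread between cultures.

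**Figure D3:**
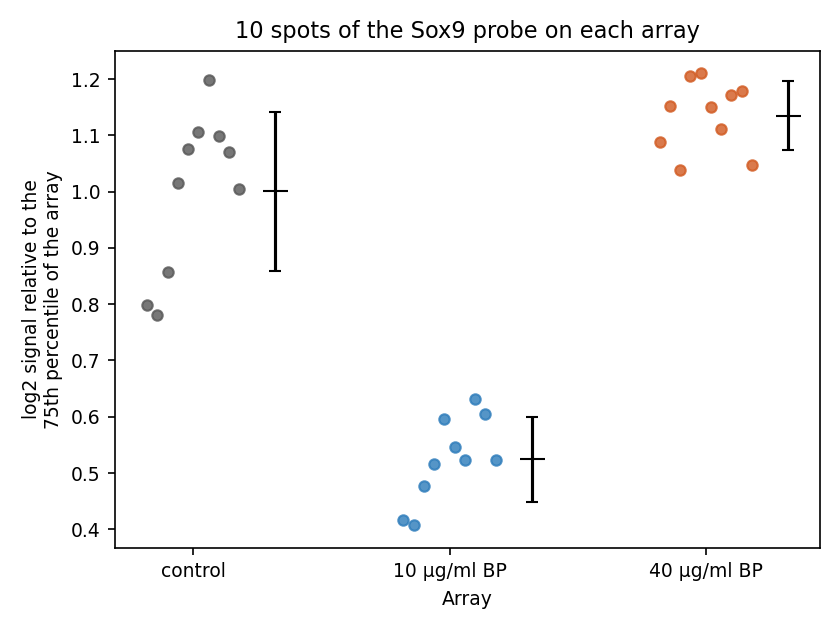
Level of each of the 10 Sox9 spots on the control, BP10 and BP40 arrays (log2 signal relative to the array's 75th percentile), with the mean and SD over spots in black. The BP10 spots run from 0.41 to 0.63, below the lowest control spot at 0.78, and the BP40 spots run from 1.04 to 1.21.

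The cartilage matrix genes differed from each other. Comp, a pentameric matrix protein of the thrombospondin family, had levels of -2.62 (control), -2.96 (BP10) and -1.51 (BP40), from processed signals of 288, 184 and 435. Only the BP40 array was high. Its ratio was -0.34 ± 0.22 at BP10 and 1.11 ± 0.21 at BP40, or 2.15-fold higher, and BP40 against BP10 gave 1.45 ± 0.22, or 2.73-fold higher within 1 scan session. Comp was the only member past 2-fold in the higher direction in any comparison. The BP40 spot of Comp was also more uneven than most, with a pixel SD of 38.1% of its mean against a median of 12.5% among 2189 like spots, of which 2.24% were as uneven. With the pixel median the ratio was 1.01 to the control and 1.40 to BP10.

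Acan, the large proteoglycan that holds water in cartilage, had levels of -2.37, -2.19 and -2.05. At BP10 its ratio was 0.17 ± 0.21 and at BP40 0.31 ± 0.21, and the 3 arrays lay within a narrow range.

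Among the mineralization genes, Spp1 was lower at both doses by less than 2-fold and Ibsp was lower mainly at BP10. Spp1 (osteopontin), a secreted phosphoprotein of bone and of many other cells, was bright, with levels of 4.45, 3.87 and 3.73 and processed signals of 38477, 20911 and 16367. Its ratio was -0.58 ± 0.20 at BP10 and -0.72 ± 0.20 at BP40, within 2-fold. Bright probes spread little, and 5.33% of the 2756 probes of like signal were as low at BP10 and 1.78% at BP40.

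Ibsp (bone sialoprotein), which nucleates mineral in bone matrix, was read by 2 probes with 693 bases between their starts. The 5′ probe had levels of -3.30, -4.95 and -4.15, with processed signals of 179, 46.4 and 69.4, above background on all 3 arrays. Its ratio was -1.64 ± 0.35 at BP10, or 3.12-fold lower, and -0.85 ± 0.26 at BP40, and BP40 against BP10 gave 0.79 ± 0.38. BP10 was the lowest array and BP40 lay between it and the control. Among the 2756 probes of like mean signal, 6.24% were as low at BP10 and 33.6% at BP40. With the normexp correction the BP10 ratio was -0.74 and no longer past 2-fold. The 3′ probe was not well above background on any array, so its ratio is not read, although it counts among the probes with a ratio below.

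Alpl, the tissue-nonspecific alkaline phosphatase that frees phosphate for mineral, had levels of -3.63, -3.81 and -3.79. Its ratio was -0.18 ± 0.25 at BP10 and -0.16 ± 0.26 at BP40 with the main scaling, and turned to 0.24 and 0.28 with quantile normalization. No direction can be given for it.

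**Figure D4:**
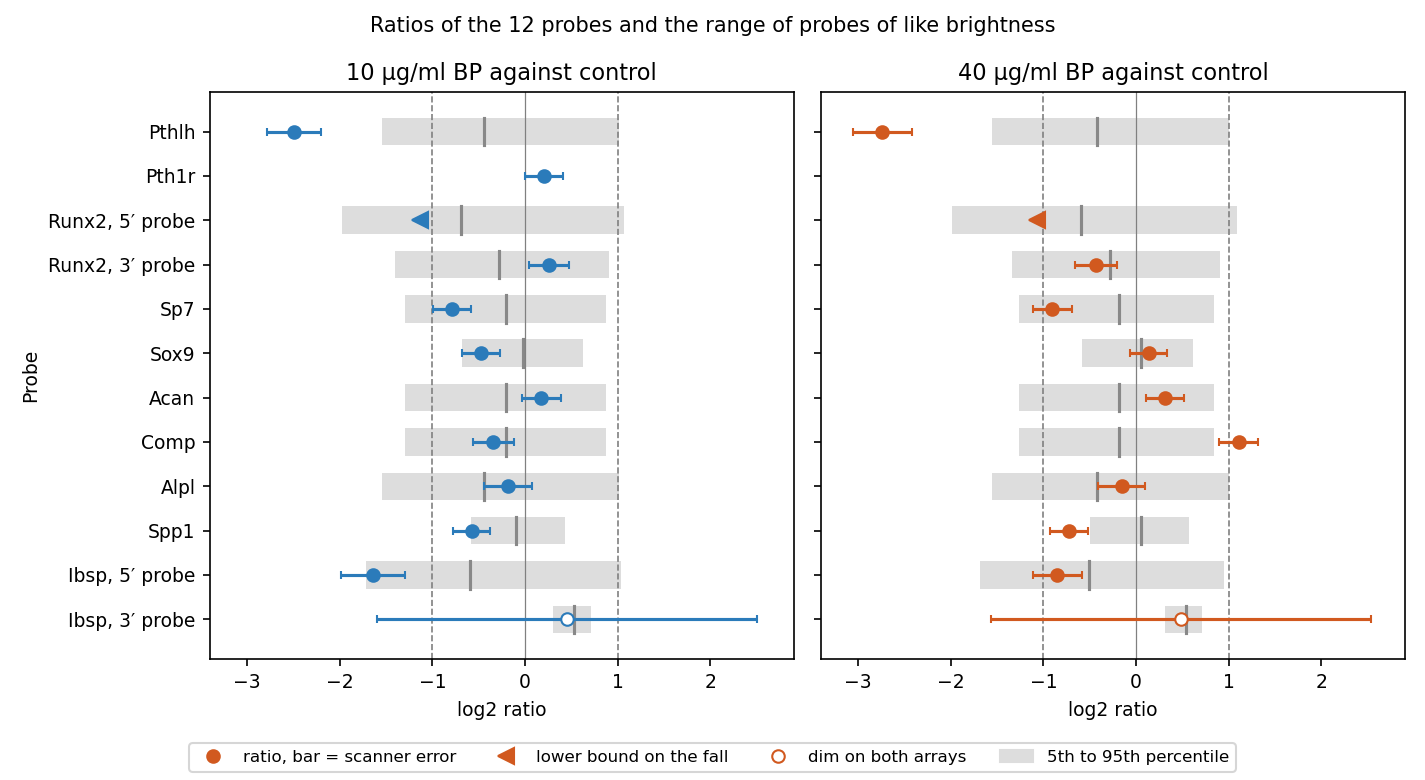
Log2 ratio of each of the 12 probes to the control at BP10 (left) and BP40 (right), with the scanner error, over the 5th to 95th percentile (grey) and median (dark line) of probes of like signal. Triangles, called lower bounds in the key, mark the 5′ probe of Runx2, placed at its own dim BP signals. Open circles are dim on both arrays and dashed lines mark 2-fold. Pthlh lies outside the grey range at both doses, Comp and Spp1 at BP40 alone.

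Counted together, 3 of the 12 member probes were past 2-fold for BP10 against the control, all lower (Pthlh, the 5′ probe of Runx2 and the 5′ probe of Ibsp), where 12.7% of all 55259 probes with a ratio were past 2-fold. For BP40 against the control 3 of 11 were past 2-fold, Pthlh and the 5′ probe of Runx2 lower and Comp higher, where 11.2% of all probes were. For BP40 against BP10 it was 1 of 11, Comp, where 3.74% of all probes were, 1.79% higher and 1.95% lower. Since the members were chosen on the ratios to the control, nothing is read from the first 2 counts. The third rests on the same BP40 spot of Comp as the second, so nothing is read from it either. The median of the member probes was -0.41 at BP10 and -0.43 at BP40, with 8 of 12 and 7 of 11 below 0, beside medians of -0.24 and -0.15 over all probes. With quantile normalization the members' medians were -0.26 and -0.12. The balance of all probes past 2-fold turned with the scaling, as 21.6% of them were higher than the control at BP10 and 22.3% at BP40 with the main scaling, and 59.2% and 61.1% with quantile normalization.

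The wider pathway was looked at through 7 lists with 109 genes and 164 probes in all. They were written from general knowledge, but with earlier results of these data known, so their counts are descriptions and no test. Of the 161 probes with a ratio, 17 were lower past 2-fold at BP10 (10.6%) and 4 higher (2.48%), where 9.93% of all probes were lower and 2.74% higher. At BP40 it was 18 lower (11.2%) and 2 higher (1.24%), where 8.7% and 2.5% were. The medians were -0.29 and -0.23. The lists as a whole were thus near the background of the arrays. With quantile normalization the list counts were 5 lower and 4 higher at BP10 and 8 lower and 3 higher at BP40, and with the median ratio at like brightness subtracted 5 and 5, and 6 and 3. No list probe was higher past 2-fold at both doses, and 9 probes were lower at both. The 2 ratios share 1 control array and the share of all probes lower at both was not counted, so nothing is read from this.

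Of the 38 probes for the Pth family and the hedgehog pathway, 3 were lower past 2-fold at BP10 and 6 at BP40, and none was higher. At BP40 these included 1 of the 4 probes of Gnas, the G protein subunit that links Pth1r to cAMP, at 2.78-fold lower, though not past 2-fold with the normexp correction, while its brightest probe had levels of 7.0, 6.97 and 6.71. Gli1, a transcription factor that is itself a target of hedgehog signaling, was lower at both doses by 1 of its 2 probes, with levels of -3.32, -4.33 and -6.28, 2.02-fold lower at BP10 and at least 3.38-fold lower at BP40. Its other probe gave -0.75 at BP10 and at least 2.80-fold lower at BP40. Hhip, which binds hedgehog ligands and is also a target of the pathway, was at least 2.11-fold lower at BP10 and at least 2.09-fold at BP40 by its dimmer probe, and had ratios of -0.95 and -1.08 by its brighter probe. The ratios of Gli1 and Hhip at BP10, and of Hhip at BP40, were not past 2-fold with quantile normalization. With the normexp correction no Gli1 or Hhip ratio that had been past 2-fold remained so, including those of both Gli1 probes at BP40.

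Ihh, the ligand in the loop with Pthlh, had ratios of -0.30 and -0.50. Of the 21 probes with a ratio for the cAMP response after Pth1r, none was past 2-fold at BP10. At BP40 Per1, a clock gene, was 2.06-fold lower by a dimmer probe, while its brighter probe had a ratio of 0.31. Dusp1, a phosphatase of MAP kinases, was 2.01-fold higher at BP40. Neither the dimmer Per1 probe nor Dusp1 was past 2-fold with quantile normalization or the normexp correction.

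Cartilage matrix was the list with most probes lower at both doses, 4 of 24, beside 3 of 38 for the Pth family and hedgehog list. The share of all probes lower at both was not counted. Of its 23 probes with a ratio at BP10, 6 were lower past 2-fold and none higher, and of 24 at BP40, 4 were lower and 1 higher. Only 12 of the 24 were above background on all 3 arrays. Its median was -0.67 at BP10 and -0.62 at BP40, but 0.04 at BP40 with the normexp correction. Col11a1, a minor fibrillar collagen of cartilage, had levels of 1.88, 0.62 and 0.28 and was 2.39-fold and 3.02-fold lower, also past 2-fold with quantile normalization and with the normexp correction. Col9a1, a collagen on the surface of those fibrils, was 2.30-fold and 2.43-fold lower by its brighter probe. Cilp, a matrix protein of the intermediate cartilage layer, was at least 2.43-fold and at least 2.41-fold lower, and Scrg1, a chondrocyte-related secreted protein, at least 2.41-fold and 2.02-fold lower. With quantile normalization Cilp, Scrg1 and, at BP10, Col9a1 were no longer past 2-fold, and 2 probes of the list were lower at each dose. With the normexp correction Cilp, Scrg1 and, at BP40, Col9a1 were within 2-fold. Matn4 and Chad, 2 further matrix proteins, were 2.52-fold and 2.24-fold lower at BP10 alone, and of these Chad was not past 2-fold with quantile normalization or the normexp correction. Prg4 (lubricin), which lubricates joints, was the probe higher at BP40, with levels of -3.09, -3.73 and -1.06, or 4.08-fold higher than the control. Like Comp it was high on the BP40 array alone, and its other probe was dim on the BP arrays or flagged.

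In the other lists, Barx2, a homeobox factor of cartilage, was 2.29-fold and 2.08-fold lower by 1 of its 2 probes, and the other probe had ratios of -0.61 and 0.18. Mepe, a matrix phosphoprotein of osteocytes, was 2.07-fold and 2.09-fold lower. Neither was past 2-fold with quantile normalization. Of the osteoblast and osteocyte list, 3 of 29 probes were higher and 2 lower at BP10, and none higher and 3 lower at BP40. The higher ones were Dlx5 and Dlx6, homeobox factors of bone, at 2.34-fold and 2.75-fold, and Ifitm5, a membrane protein of osteoblasts, and none of these was past 2-fold with the normexp correction. Besides Mepe, a probe of Sparc (osteonectin) was 4.30-fold lower at BP10, but a brighter Sparc probe had a ratio of -0.37, and Bglap (osteocalcin), whose near copies Bglap2 and Bglap3 may share its signal, and Omd, a bone proteoglycan, were 2.17-fold and 2.58-fold lower at BP40, neither past 2-fold with the normexp correction. The mineral and phosphate list had 3 of 18 probes lower at each dose and 1 higher at BP10. At BP10 those were Slc20a1, Ahsg and Dspp, lower, and Smpd3, a sphingomyelinase needed for mineral, 2.32-fold higher. At BP40 they were Enpp1, Mgp and Alppl2, lower. A much brighter Slc20a1 probe had a ratio of -0.01 at BP10, and another Enpp1 probe had -0.40 at BP40. With quantile normalization none of the list was lower past 2-fold at BP10 and 1 probe was at BP40, with Slc20a1, Ahsg, Dspp, Enpp1 and Alppl2 all within 2-fold. Mgp, an inhibitor of calcification and the probe that stayed, was bright, with levels of 5.70, 5.10 and 4.65. The family of Comp and Acan had 2 of 13 probes lower at BP10, Thbs4 (3.98-fold) and Bcan (at least 2.71-fold), none higher, and none past 2-fold at BP40 among 12. Bcan, unlike Thbs4, was within 2-fold with quantile normalization and with the normexp correction. Of the 10 fibroblast marker probes 2 were lower past 2-fold at BP10 and 3 at BP40, none was higher, and their median ratios were -0.73 and -0.76. Their summed signal relative to the 75th percentile was 1241 (control), 838 (BP10) and 906 (BP40). The chondrocyte marker probes summed to 5.34, 5.46 and 5.04 and those of osteoblasts to 1.04, 0.72 and 0.61. The chondrocyte sum is mostly that of Col2a1 and Sox9. Over its 9 probes the median ratios were -0.48 at each dose, beside -0.49 and -0.85 for the 9 osteoblast probes. The chondrocyte markers include the members Sox9 and Acan, and the osteoblast markers include Sp7 and both Ibsp probes. These sums and medians are thus partly the members' own values and no separate measure of cell content. The part of such cells in the ratios of the members was not tested.

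**Figure D5:**
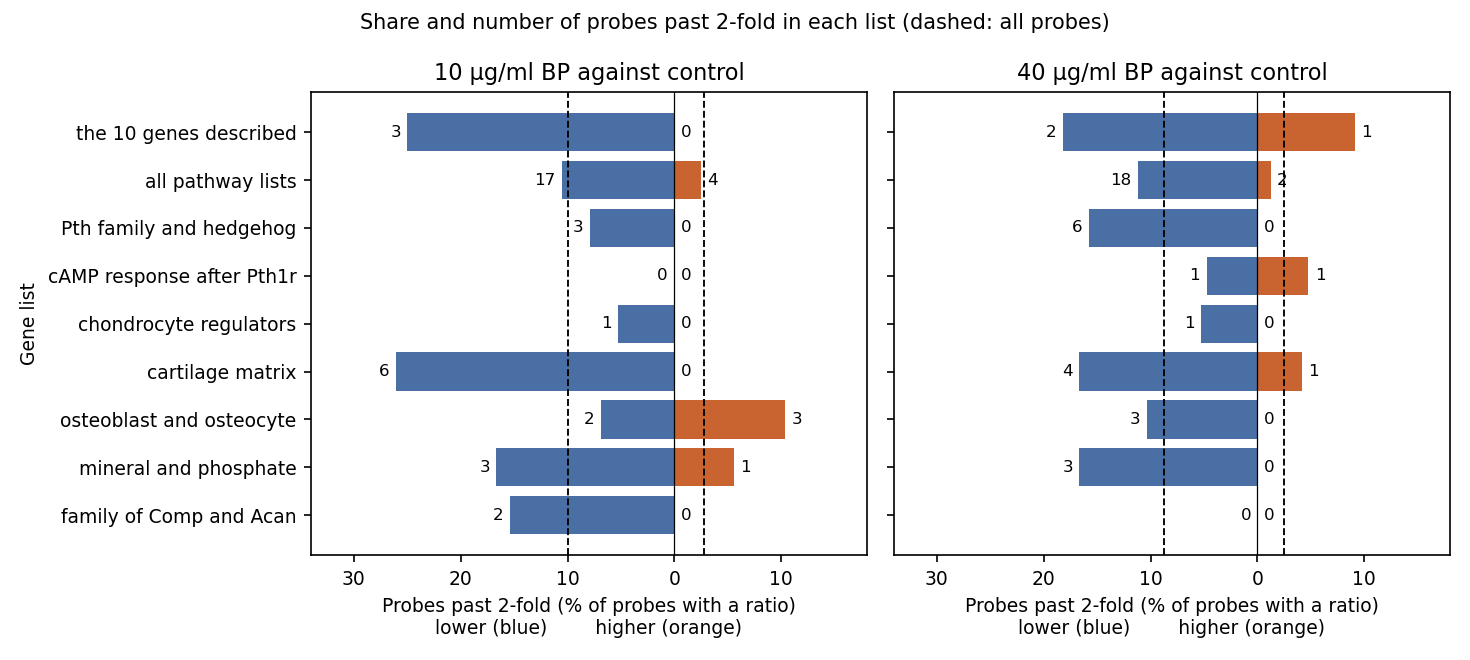
Share of the probes with a ratio that were past 2-fold, lower (blue) and higher (orange) than the control, for the 10 genes and for each pathway list at BP10 (left) and BP40 (right). Numbers are counts of probes and dashed lines the shares over all probes, 9.93% and 2.74% at BP10 and 8.7% and 2.5% at BP40. All lists together reach 10.6% lower at BP10 and 11.2% at BP40.

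The promoters were read from RefSeq (GRCm38.p6), which gave 11 windows for 7 of the 10 genes and none for Comp, Sox9 and Sp7. Runx2 protein is known to bind the letters AACCACA, and these were searched on both strands (TGTGGTT on the other strand) from 250 bases before to 50 after each start. They were present in 2 of the 11 windows, against 5.27% of all 32851 promoter windows. Runx2 itself held 3 copies, 1 of them in the bases before the start, and 1 of the 2 windows of Spp1 held 1. The 250 bases before those starts are shown because Spp1 is a textbook target of Runx2, with the motif in capitals.
Runx2, chr17:44814628-44814877, minus strand: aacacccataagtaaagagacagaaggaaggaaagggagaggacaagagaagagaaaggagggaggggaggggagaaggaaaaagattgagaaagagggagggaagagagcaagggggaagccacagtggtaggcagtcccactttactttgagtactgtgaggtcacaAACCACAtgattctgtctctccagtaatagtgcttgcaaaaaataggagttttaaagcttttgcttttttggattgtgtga
Spp1, chr5:104434861-104435110, plus strand: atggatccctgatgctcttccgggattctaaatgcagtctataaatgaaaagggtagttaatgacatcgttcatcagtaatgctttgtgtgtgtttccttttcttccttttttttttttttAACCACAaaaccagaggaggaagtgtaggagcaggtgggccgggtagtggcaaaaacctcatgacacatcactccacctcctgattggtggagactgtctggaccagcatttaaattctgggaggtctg
These coordinates are of another build than the mm9 coordinates of the probes and cannot be set against them. A match to the letters is a description of the window and not a site, and the windows of Pthlh, Pth1r, Acan, Alpl and Ibsp did not hold them.

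By the pair of ratios to the control, the probes most like Pthlh among 19719 named probes above background on all 3 arrays were those of Tpsb2, Ccl11, Syt10, Epgn and Fgf21. Likeness was the Euclidean distance between the 2 ratios, over 3 arrays. Tpsb2, a tryptase of mast cells, was nearest by 1 of its 2 probes, at a distance of 0.60 with ratios of -2.56 and -3.34. Ccl11, the chemokine eotaxin, followed at 0.67 with -3.16 and -2.75. Syt10, a synaptotagmin, had -2.36 and -3.41. Epgn, a ligand of the EGF receptor, had -2.20 and -2.03, and Fgf21, an endocrine growth factor, -2.18 and -2.02. The control spots of Tpsb2 and Epgn were uneven too, with pixel SDs of 49.5% and 41.2% of the mean, whereas those of Ccl11, Syt10 and Fgf21 were even, at 8.13%, 5.44% and 10.2%.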

How the data were processed

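The authors deposited the scanner output of 3 Agilent arrays made with Feature Extraction 10.5.1.1. Its intensity per spot is background-corrected on each array and unscaled across them, and the series table repeats these values. Flags and other spot statistics deposited with them are the software's own. From these, log2 intensity was taken and each array's 75th percentile over non-control spots subtracted. Outlier-flagged spots were left out and spots of a probe averaged. Where a probe was dim on 1 array, its ratio was taken at its own signal or, if higher, at the dimmest signal counted as well above background there. The ratio is a bound in the latter case. Like brightness means the same of 20 classes of mean signal.

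The members and lists were chosen with earlier results of these data known. The probes named are all those of the 10 genes, list genes past 2-fold the same way at both doses, and the 5 nearest to Pthlh. Other list genes are counted, and those named in counts of 6 or fewer, and Ihh, were named after their values were seen. A list gene that meets the rule is counted but not reported by name here. Results were recomputed under 11 other settings (percentile over other spots, quantile normalization, normexp background correction with an offset of 50, filters on dim probes, folds of 1.5 and 3, median ratio at like brightness subtracted, the series table, 1 probe per gene), and under 2 more chosen after seeing the data. Python 3.11.15, pandas 2.3.3, R 4.3.3 and limma 3.58.1 were used.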

Additional observations from a re-analysis of the deposited data

How the results depend on the processing

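With 1 array per condition, nothing here measures the spread between cultures, and precision is limited by having 3 arrays. No paired analysis was possible because no condition was measured on more than 1 array. Of 39 counts of member probes past 2-fold under the alternatives, 34 stayed within 1.5 times the reported count. The count for BP10 against control was 1 with the normexp correction in place of 3. At a 1.5-fold threshold it was 6 for BP40 against control and 4 for BP40 against BP10, and at 3-fold 1 and 0, from the thresholds themselves. Pthlh stayed past 2-fold at both doses under the 11 alternatives and the 2 added ones, and was past 3-fold with the scaling reported. The ratios of single probes moved by less than the spot spread in 213 of 271 cases, and none past 2-fold turned its direction.

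Over all probes, the counts past 2-fold for BP10, BP40 and BP40 against BP10 were 7004, 6205 and 2067. They were 2026, 1459 and 765 with normexp, 13471, 12294 and 6177 without the filter on dim probes, and 11093, 10065 and 3183 with the pixel median. At 1.5-fold they were 15740, 14467 and 7366, and at 3-fold 1509, 1275 and 637. With background on both arrays required, BP40 against BP10 gave 1237. The share that was higher than the control was 36.7% and 47.4% with normexp, and 68.9% and 66.2% with the median ratio at like brightness subtracted. For BP40 against BP10 the higher share went from 47.9% to 37.4% when the percentile was taken over probes above background on all arrays. The causes were not tested. The alternatives of the pixel median and of keeping flagged spots were chosen after seeing the data.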
